A study of Mus musculus with 2 samples.

Results

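Mural cells wrap the blood vessels of the brain, and 80 barcodes met a rule for them among 12846 kept barcodes of neonatal mouse cortex, 49 of 6766 in the WT library and 31 of 6080 in the cKO library. They were chosen on measured values. A barcode was kept when it held 500 or more genes and when mitochondrial genes took no more than 10% of its unique molecular identifiers (UMIs). It was a mural member when its raw UMIs of Rgs5, Kcnj8, Pdgfrb and Notch3 summed to at least 5 and to no less than its UMIs of the endothelial genes Cldn5, Flt1 and Pecam1, with at least 1 Rgs5 UMI. Members also had at most 2 UMIs of the glial gene Slc1a3, at most 2 of the neuronal genes Neurod2 and Neurod6, and fewer UMIs of the fibroblast genes Col1a2, Dcn and Lum than of the mural genes. All levels of the 4 mural genes in members therefore describe the choice.

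The study dissociated cerebral cortex of C57BL/6 mice at postnatal day 0 with papain and captured single cells on the 10x Genomics platform, with 1 library per genotype. The cKO mouse carried STINGf/f;Nestin-Cre, a floxed allele of the innate immune adaptor STING (gene Tmem173) removed by Cre under the Nestin promoter, which acts in neural progenitors and their progeny. The control is labelled WT, and the study's text calls the control of this experiment both WT and STINGfl/fl. How many animals made up a library is not given in the sources used here. With 1 library per group no difference between genotypes could be tested, and every interval below covers counting error only.

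Pericytes sit within the basement membrane of capillaries and vascular smooth muscle cells ring the arterioles. Both are recruited by endothelial PDGF-B through the receptor Pdgfrb, and Notch3 is their main Notch receptor. Pericytes hold a potassium channel that opens when ATP runs low, built from the pore Kcnj8 and the sulphonylurea receptor Abcc9. Smooth muscle cells carry the contractile proteins Acta2, Tagln and Myh11.

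The genes of the channel pair and 1 contractile gene are shown by their promoters, since Kcnj8 and Abcc9 encode the parts of that channel and Myl9 is a contractile gene found in most members. Each sequence is the RefSeq promoter of build GRCm38.p6, from 250 bases before to 50 after the gene start, read 5′ to 3′ on the gene's strand. Capitals mark TGGGAA, the core of the RBPJ site through which Notch acts, in Kcnj8 (chr6:142571565-142571864, minus strand) and Abcc9 (chr6:142702225-142702524, minus strand), and a CArG box, the site of serum response factor, in Myl9 (chr2:156775214-156775513, plus strand).
Kcnj8: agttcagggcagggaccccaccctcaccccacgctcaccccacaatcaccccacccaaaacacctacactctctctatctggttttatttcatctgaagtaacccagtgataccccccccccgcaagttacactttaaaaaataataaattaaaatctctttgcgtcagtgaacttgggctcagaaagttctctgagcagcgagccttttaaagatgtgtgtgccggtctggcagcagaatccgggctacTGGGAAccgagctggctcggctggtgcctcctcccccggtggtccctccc
Abcc9: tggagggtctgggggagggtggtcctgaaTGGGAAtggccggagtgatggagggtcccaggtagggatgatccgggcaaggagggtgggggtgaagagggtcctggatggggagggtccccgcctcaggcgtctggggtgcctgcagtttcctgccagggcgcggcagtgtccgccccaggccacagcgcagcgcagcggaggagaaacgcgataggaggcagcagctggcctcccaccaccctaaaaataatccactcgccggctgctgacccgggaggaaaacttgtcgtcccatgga
Myl9: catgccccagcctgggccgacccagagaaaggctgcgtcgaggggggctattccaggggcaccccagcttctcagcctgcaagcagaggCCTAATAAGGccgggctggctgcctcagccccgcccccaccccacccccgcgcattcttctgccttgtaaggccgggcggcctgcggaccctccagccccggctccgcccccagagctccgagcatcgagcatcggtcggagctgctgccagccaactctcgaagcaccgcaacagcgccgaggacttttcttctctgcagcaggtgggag
Searched on both strands, TGGGAA was present in 8397 of 32851 promoters of the same length (25.56%) and the CArG box in 535 (1.629%). Of the 19 pericyte list genes with a promoter in the table, 7 held TGGGAA (36.84%), among them Abcc9 and Vtn. Of 15 contractile genes with a promoter sequence 5 held TGGGAA, including Acta2, and Myl9 alone held an exact CArG box. The box was searched as CCWWWWWWGG, with W for A or T. Sites with a mismatch were not counted, so the other genes may hold such sites. Tagln had no promoter sequence to search. A match says only that these letters are in the window.

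The libraries held 69554624 UMIs in 10715 barcodes (WT) and 67448785 in 9198 (cKO), and the kept barcodes had a median of 6653 and 7629 UMIs. In all, 19 barcodes were shared between the libraries and none of them was a member. Xist gave 0 UMIs in the WT members and 216 in the cKO members, in 29 of 31 cells, while 4 genes of chromosome Y gave 96 UMIs in 36 of 49 WT members and 0 in cKO members. The libraries thus differed in the sex of the animals as well as in genotype, and the effects of sex, genotype and library cannot be told apart anywhere below. Tmem173 gave 5 UMIs in 4 of 49 WT members and 1 UMI in 1 of 31 cKO members, too few to show whether the deletion reached these cells. In all other kept barcodes Tmem173 gave 127 UMIs (2.20 CPM, UMIs scaled to a total of 1000000) in WT and 17 (0.30 CPM) in cKO.

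Mural members made up 0.724% of kept WT barcodes (exact 95% interval 0.536 to 0.956) and 0.510% of kept cKO barcodes (0.347 to 0.723). The difference, cKO minus WT, was -0.214 percentage points (Newcombe interval -0.491 to 0.0619) and its interval included 0. The members had a median of 8125 UMIs in WT (1680 to 35480) and 6382 in cKO (762 to 53482), with 6.36% and 6.94% mitochondrial UMIs. With 1 library per genotype, a difference in the share of members between genotypes could not be tested. The libraries also differed in all mural UMIs. Over all barcodes Rgs5 gave 7177 UMIs in WT and 2409 in cKO, and the 4 mural genes together gave 10458 and 3784.

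The members of the libraries differed in the endothelial RNA they carried. At least 1 UMI of Cldn5, Flt1 or Pecam1 was found in 25 of 49 WT members (51.0%) and 7 of 31 cKO members (22.6%). At least 6 such UMIs were found in 20 of 49 (40.8%) and 3 of 31 (9.68%), a difference of -31.1 points (-46.5 to -11.4). The plot of mural against endothelial UMIs shows 24 members of each library with none, and WT members spread from 1 to 150 endothelial UMIs.

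**Figure D1:**
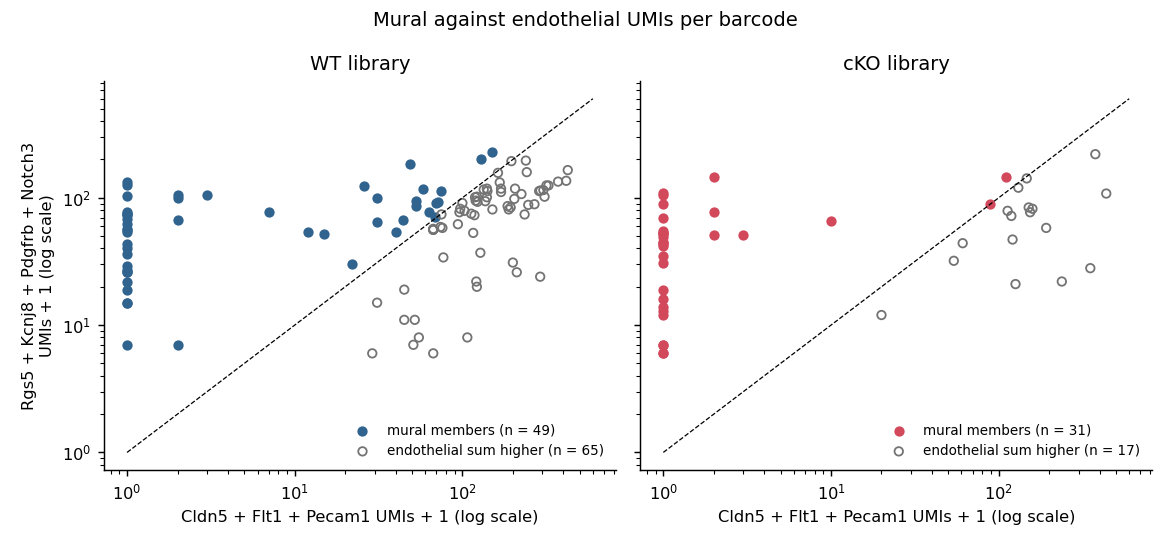
UMIs of the 4 mural genes (vertical axis, plus 1, log scale) against UMIs of the 3 endothelial genes (horizontal axis, plus 1, log scale) per barcode in the WT (left) and cKO (right) library. Filled points are the 49 and 31 members, open points the 65 and 17 barcodes with a mural sum of at least 5 and a higher endothelial sum, and the dashed line marks equal sums.

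On the other side of that line lay 65 WT barcodes (0.961% of kept) and 17 cKO barcodes (0.280%) with a mural sum of at least 5 but a higher endothelial sum, called mixed barcodes here. They were deeper, with a median of 28047 UMIs in WT and 32189 in cKO. The difference of -0.681 points (-0.963 to -0.415) excluded 0. Mixed barcodes held 52.8% of all Rgs5 UMIs of the WT library and 37.9% of those of the cKO library, against 36.7% and 47.4% in members. Members made up 43.0% of members plus mixed barcodes in WT and 64.6% in cKO, 21.6 points more (4.74 to 36.4). Scrublet called 2 WT members and 0 cKO members doublets, at an expected rate of 0.06, since at its default of 5% it called 165 WT barcodes and 0 cKO barcodes in all. The part of doublets in the mixed barcodes was not tested. Endothelial barcodes, chosen with at least 5 UMIs of the 3 endothelial genes and at most 2 of the mural genes, numbered 89 (1.32%) in WT and 47 (0.773%) in cKO, a difference of -0.542 points (-0.899 to -0.190).

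Because the WT members carried more endothelial RNA, most comparisons are given also for core members, a narrower choice made after seeing the data. Core members had a mural sum of at least 10, at least 3 Rgs5 UMIs and no UMI of the 3 endothelial genes. There were 23 in WT (median 4442 UMIs, 135766 in all) and 20 in cKO (median 6100.5, 115891 in all), and mitochondrial shares of 6.95% and 7.01%. Without endothelial UMIs as the only added condition, 24 members remained in each library, and the share differed by 0.0400 points (-0.176 to 0.264).

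Barcodes near the threshold of 5 UMIs were often deep. At a mural sum of 5 or 6 the median was 19451.5 UMIs in WT and 13633 in cKO. At 3 or 4 it was 21667 and 22414.5. The 4 cKO barcodes at a sum of 5 or 6 were uneven, with 762, 5634, 21632 and 29397 UMIs. Members with a mural sum of 5 or 6 numbered 2 in WT, with 0 UMIs of the pericyte genes Vtn, Abcc9, Higd1b and Ndufa4l2 together, and 4 in cKO, with 24 UMIs in 2 cells. Just outside, at a sum of 3 or 4, 5 WT barcodes held 12 UMIs of those genes in 2 cells and 8 cKO barcodes held 1. All 45 WT and 24 cKO members with a mural sum of 15 or more held at least 1 of them.

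The markers of 4 members went against the mural name. These 2 WT and 2 cKO members held 6 Rgs5 UMIs each but none of Kcnj8, Pdgfrb, Notch3, Vtn, Abcc9, Higd1b or Ndufa4l2, at 16563 to 29397 UMIs per barcode. They carried 7.47% of all UMIs of the WT members and 16.75% of those of the cKO members, and so enter every level given for all members. None of them was among the core members. Leaving them out was decided after seeing the data and uses genes of the pericyte list. Without them the genes past 2-fold numbered 304 higher and 538 lower, beside 298 and 497 with them. The genes that reach the UMI minimum change when cells are left out, so these counts are not shares. The values of a gene list without the 4 members are given below where they differ most.

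Genes that set members apart from all other kept barcodes included pericyte genes in both libraries. The leading gene outside the rule was Vtn, which encodes the matrix protein vitronectin, with 3208 CPM in WT and 2809 CPM in cKO members, a log2 ratio of members over others of 5.96 and 6.97 on the log2(CPM + 10) scale. Higd1b, a mitochondrial inner membrane protein, followed with 1337 and 1076 CPM, then the gelatinase Mmp9 with 1037 and 765 CPM and Ndufa4l2, a hypoxia-inducible respiratory chain relative, with 770 and 614 CPM. The stromal glycoprotein Cd248, the gap junction gene Gja4, the basement membrane collagen Col4a1, the ADP-ribosyltransferase family member Art3, the proteoglycan Bgn and the lung-type cytochrome oxidase subunit Cox4i2 were also among the 15 leading genes. Myl9, a myosin light chain shared by pericytes and smooth muscle, had 1034 and 811 CPM. Some of these genes were found in endothelial barcodes too, where Col4a1 had 938 and 1090 CPM, Bgn 342 and 232 and Gja4 144.5 and 67.9. Vtn, Higd1b, Mmp9 and Ndufa4l2 had at most 2.98 CPM there.

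Read as lists, 20 of 20 measured pericyte genes were at least 2-fold higher in members than in other barcodes in both libraries, against 19.8% of the 2825 genes measured (560), while 4.18% were lower in both. So were 18 of 19 genes of basement membrane and matrix, 10 of 11 of vasoactive receptors and tone and 4 of 5 contractile genes. The endothelial list was also higher, for 8 of 8 measured genes, and the fibroblast list for 4 of 4, while 2 of 2 neuron genes were lower. These values come from the cells that the rule picked and describe them only. Markers of other cell types were found in the members as well. The 12 neuron genes gave 535 UMIs in 48 of 49 WT members (1028 CPM) and 391 UMIs in 28 of 31 cKO members (1283 CPM). The 12 fibroblast genes gave 450 UMIs in 45 WT members and 264 UMIs in 30 cKO members. Among them were Col3a1 (33 and 21 cells), Fn1 (30 and 17 cells) and Col1a2 (33 and 22 cells), which the rule limits. Dcn and Lum, also limited by the rule, and Col13a1 were at 0 in both libraries. Col1a1 and Pdgfra were at 0 in WT members and in 3 and 1 of 31 cKO members. After the earlier limits of the rule, its fibroblast limit removed 0 barcodes from either library. The 9 radial glia and astrocyte genes gave 113 and 29 UMIs, with Fabp7 in 27 and 9 cells and Aqp4 at 0. The 8 microglial genes gave 15 UMIs in 1 WT member and 0 in cKO. The part of these RNAs in the results below was not tested. The 5 erythroid genes gave 13616 UMIs in WT and 1 in cKO, almost all of them 8512 and 5094 UMIs in 2 WT members.

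Smooth muscle cells were hardly represented, so the members are described by their mural and pericyte genes and not as smooth muscle. The summed Acta2, Tagln and Myh11 reached 10 UMIs in 1 of 49 WT members (2.04%, 0.0517 to 10.9) and in 0 of 31 cKO members, an upper exact limit of 11.2%. It was 0 in 47 of 49 WT and 29 of 31 cKO members. That WT cell had 105 UMIs of Acta2 (smooth muscle actin), 72 of Tagln (transgelin), 1 of Myh11 (smooth muscle myosin), 80 of Myl9 and 15 of Tpm2 among 10571 UMIs, and 0 of Abcc9. It also had 72 UMIs of Vtn and 31 of Higd1b. Cnn1, Lmod1, Myocd, Pln and Actg2, further smooth muscle genes, were at 0 in all WT members. The apparent differences of Acta2 (215 and 3.28 CPM) and Tagln (138 and 0 CPM) between WT and cKO members came from this cell, which held 93.8% of the Acta2 and all of the Tagln UMIs.

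The comparison of cKO with WT asked whether mural genes differ when STING is removed from the neural lineage. A gene counts as past 2-fold when its log2(CPM + 10) differs by 1 or more between the libraries, among genes with at least 20 UMIs over both. In all members 298 of 6209 genes were higher in cKO (4.80%) and 497 lower (8.00%). In core members 272 of 2473 were higher (11.0%) and 220 lower (8.90%). The median log2 ratio over genes was 0.03 in all members and 0.07 in core members. Single ratios below are log2 of CPM in cKO over CPM in WT without an added constant, with the exact conditional binomial 95% interval.

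Rgs5, Pdgfrb and Notch3 were used to choose the cells, so their values describe the choice. Rgs5, a regulator of G protein signalling and the classic pericyte marker, had 5062 CPM in WT and 3744 CPM in cKO members. In core members Rgs5 had 6143 and 5833 CPM, a log2 ratio of -0.07 (-0.22 to 0.07). Pdgfrb, the receptor for PDGF-B, had 1002 and 1053 CPM in core members (log2 ratio 0.07, -0.29 to 0.43). Notch3 had 221 and 224 CPM in core members (0.02, -0.79 to 0.83). Per 10000 UMIs of a cell, Rgs5 ran from 13.6 over a median of 67.7 to 144 in WT core members and from 12.8 over 53.9 to 121 in cKO core members, so the cells of both libraries overlapped over nearly their whole range. Vtn had 5583 and 5151 CPM in core members (-0.12, -0.27 to 0.04), and Cd248 had 479 and 414 CPM (-0.21, -0.78 to 0.35).

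**Figure D2:**
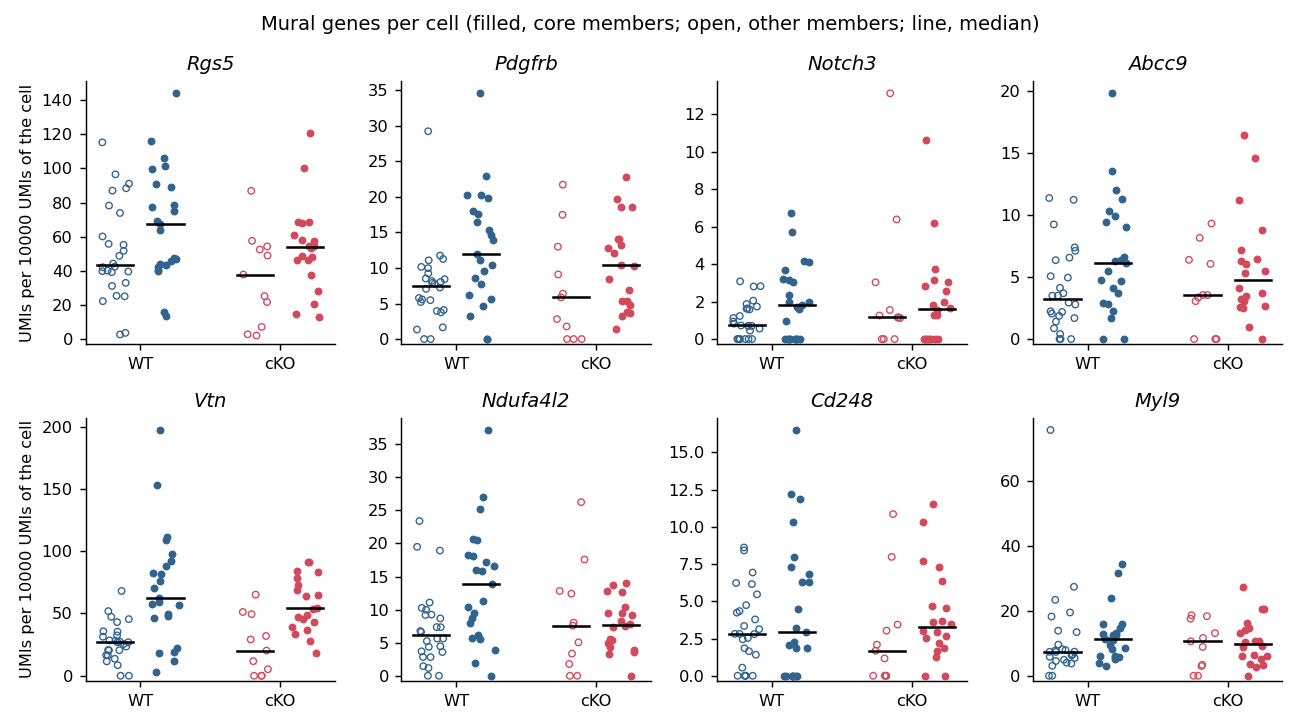
UMIs per 10000 UMIs of each cell (vertical axes) for 8 mural genes in WT (blue) and cKO (red) members. Filled points are core members (23 and 20), open points the other members (26 and 11), and lines are medians. The core members of both libraries cover overlapping ranges for every gene, and the single open WT point high in Myl9 is the contractile cell.

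None of the 24 pericyte list genes measured was past 2-fold in either direction in all members, beside 4.80% of all genes higher and 8.00% lower. In core members 2 of 23 were higher in cKO and 0 lower, beside 11.0% and 8.90% of all genes, so the number higher was no more than the background. Lamc3, a laminin chain, had 36.8 CPM in WT and 147 CPM in cKO core members (1.99, 0.50 to 3.79). Foxf2, a transcription factor of brain pericytes, had 118 and 259 CPM (1.14, 0.21 to 2.11), but 177 and 177 CPM in all members. In endothelial barcodes Foxf2 had 257 and 325 CPM. The summed list had a log2 ratio of -0.19 (-0.26 to -0.13) in all members and -0.20 (-0.30 to -0.11) in core members. It moved with the choice of cells, to -0.04 (-0.11 to 0.02) without the 4 members that held Rgs5 alone and -0.037 by the stricter rule. Without endothelial UMIs it was -0.56. That choice kept both cKO members that held Rgs5 alone (21632 and 29397 UMIs) but in WT only the member with 16563 UMIs. Their part in the -0.56 was not tested. With 1000 genes and 5% mitochondrial UMIs, which left 1 cKO cell, the summed list was 0.62. The transcription factor Zic1 was higher in cKO with an interval above 0, at 494 and 889 CPM in core members (0.85, 0.39 to 1.32), and in mixed barcodes its ratio was 0.66 (0.30 to 1.02). Higd1b lay just short of the 2-fold limit in core members, at 2298 and 1165 CPM (-0.98, -1.28 to -0.68), with 16 of 20 cKO core cells and all 23 WT core cells holding a UMI. In all members Higd1b differed less (-0.31, -0.51 to -0.12), but 2 deep cKO members held 82 and 64 of the 328 cKO UMIs. Per 10000 UMIs of a cell, the median over all members was 15.2 in WT and 9.10 in cKO. Cox4i2 (-0.75, -1.36 to -0.16) and Ndufa4l2 (-0.53, -0.91 to -0.15) were also lower in core members. Ndufa4, the widely expressed relative of Ndufa4l2, had 436 and 446 CPM in all members and 309 and 138 CPM in core members.

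**Figure D3:**
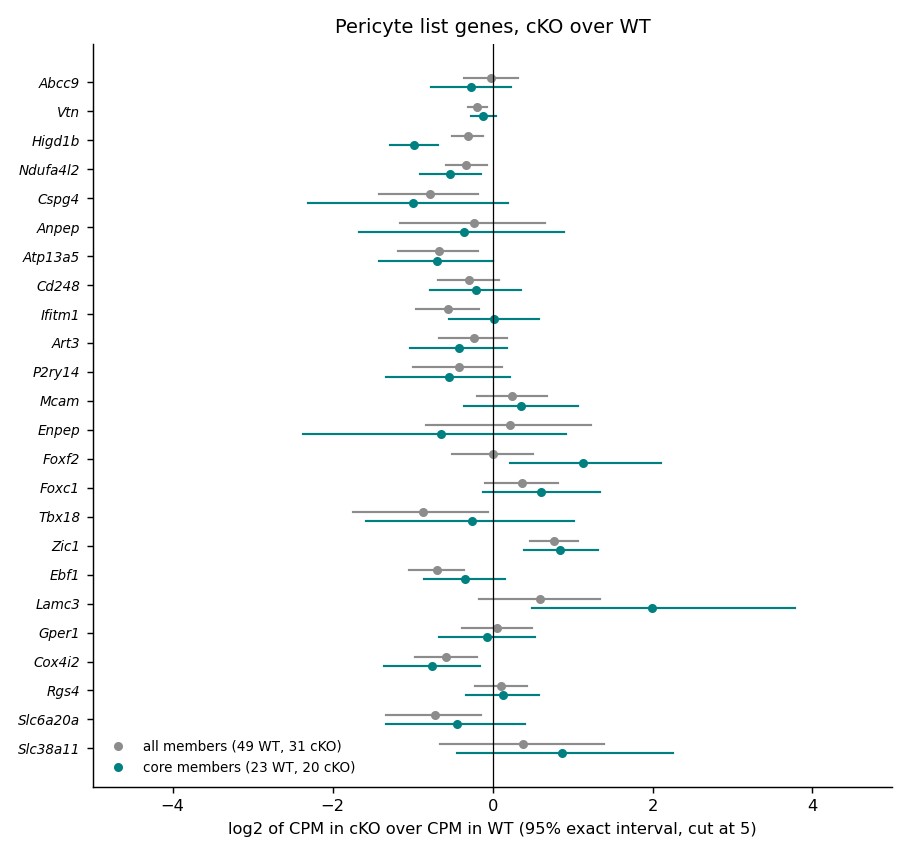
Log2 ratio of CPM in cKO over CPM in WT (horizontal axis) for 24 pericyte list genes, with exact 95% intervals of counting error, in all members (grey) and core members (teal). In core members most intervals include 0, Zic1 lies above 0 in both, and Higd1b differs more in core members (-0.98) than in all members (-0.31).

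Kcnj8 and Abcc9 are the pore and the regulatory subunit of 1 channel. Kcnj8 is a gene of the rule, so its values are a description, and no test of its difference from Abcc9 was made. Kcnj8 had 976 CPM in WT and 512 CPM in cKO members (-0.93, -1.20 to -0.67), and 1738 and 906 CPM in core members (-0.94, -1.29 to -0.60). Per 10000 UMIs, Kcnj8 ran from 0 over a median of 19.8 to 37.7 in WT core members and from 1.83 over 8.80 to 24.3 in cKO core members. The cells overlapped, with the WT cells mostly higher. Abcc9 had 390 and 384 CPM in members (-0.02, -0.36 to 0.31) and 611 and 509 CPM in core members (-0.26, -0.77 to 0.23). In mixed barcodes, which are no members but were also chosen in part on Kcnj8, the ratio was -1.23 (-1.54 to -0.93) for Kcnj8 and -0.04 (-0.34 to 0.25) for Abcc9. In core members the intervals of both genes overlapped. Their closest relatives, Kcnj11 and Abcc8, gave 0 and at most 1 UMI in members.

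Of the 12 genes lowest in cKO members, Plce1, Igfbpl1, Meis2 and Ezh2 were also lower past 2-fold in cKO core members. A single cell held 68.6% of the WT core UMIs of Igfbpl1, 52% of those of Ezh2 and 38.3% of those of Meis2, and Ezh2 was lower in neurons too (-2.32). Meis2 had 442 and 8.63 CPM in core members, in 5 of 23 and 1 of 20 cells, and a ratio of -0.69 in neurons. Plce1 encodes phospholipase C epsilon, an enzyme downstream of Ras-family GTPases. Plce1 was found in 35 of 49 WT members (76 UMIs, 146 CPM) and in 1 of 31 cKO members (1 UMI, 3.28 CPM). In core members the numbers were 16 of 23 cells (27 UMIs, 199 CPM) and 0 of 20, with a log2 ratio of at most -2.54 by the exact interval. Projection neurons, used as the background, held a Plce1 UMI in 1.00% of WT and 0.900% of cKO cells, at median depths of 8948.5 and 9371 UMIs. With every cell thinned to 1500 UMIs, Plce1 remained in 7 of 23 WT and 0 of 20 cKO core members. In mixed barcodes Plce1 was also lower in cKO (-3.27, -5.17 to -1.88), at 45 of 65 against 2 of 17 barcodes, and in neurons the ratio was -0.15. No WT member held more than 9.21% of the Plce1 UMIs, so no single cell set the value.

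Heyl, a transcriptional repressor induced by Notch signalling in mural cells, was likewise found in few cKO members. Heyl had 171 CPM in WT members (37 of 49 cells) and 29.5 CPM in cKO members (6 of 31), a log2 ratio of -2.53 (-3.71 to -1.54). In core members it had 258 and 51.8 CPM (-2.32, -3.86 to -1.05), with 16 of 23 and 5 of 20 cells holding a UMI. The median cKO core member had no Heyl UMI and the median WT core member had 2. In mixed barcodes Heyl was lower too (-1.50, -2.41 to -0.70), and it was at 0 UMIs in endothelial barcodes.

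Of the 13 Notch pathway genes measured, 5 were lower in cKO members and none higher, beside 8.00% of all genes lower. Dll4, Jag1, Heyl, Maml2 and Mfng were those 5. Dll4 is an endothelial ligand and had 0 UMIs in core members. Mfng was in 17 of 49 WT and 4 of 31 cKO members, but in 0 of 23 and 1 of 20 core members. Jag1, a ligand, had 66.3 and 17.3 CPM in core members from 9 and 2 UMIs. In core members 1 of 5 measured genes, Heyl, was lower past the limit, beside 8.90% of all genes, and 0 were higher, beside 11.0%. Notch1 had 184 and 173 CPM in core members (-0.09, -1.02 to 0.81), and Hes1, another Notch target, had 214 and 190 CPM (-0.17, -1.04 to 0.68). The target Nrarp had 118 and 17.3 CPM in core members (-2.77, -5.94 to -0.68), at 16 and 2 UMIs, under the 20 UMIs asked for. The target Hey2 had 81.0 and 104 CPM in core members, at 11 and 12 UMIs.

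**Figure D4:**
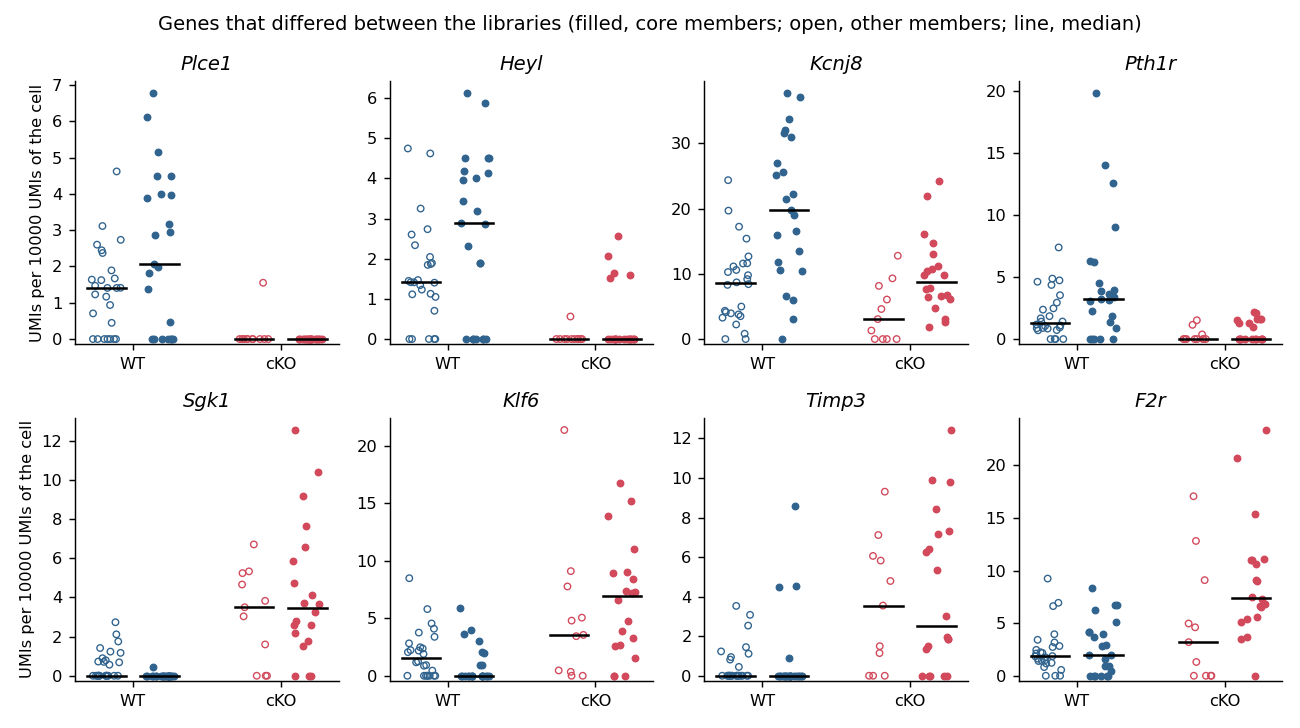
UMIs per 10000 UMIs of each cell (vertical axes) for 4 genes lower and 4 genes higher in the cKO library. Blue points are WT and red points cKO members, filled for core members (23 and 20) and open for the others, with lines at medians. Plce1 was seen in 1 cKO member, and Sgk1 in 1 WT core member and 17 cKO core members.

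Of 15 genes of vasoactive receptors and tone, none was past 2-fold in all members, beside 4.80% of all genes higher and 8.00% lower. Of 12 measured in core members none was, beside 11.0% and 8.90%. The list sum was -0.43 in all members and -0.25 in core members. The genes that follow were chosen after their values were seen. Pth1r, the parathyroid hormone receptor, had 354 and 77.7 CPM in core members (-2.19, -3.40 to -1.14) and was lower in mixed barcodes (-2.82) and in neurons (-1.81) as well. Gucy1a3, a subunit of the nitric oxide receptor, had 766 and 397 CPM in core members (-0.95, -1.48 to -0.43), and its partner Gucy1b3 had 398 and 319 CPM (-0.32, -0.96 to 0.31). Ednra, an endothelin receptor, had 339 and 224 CPM (-0.59, -1.35 to 0.13). Ppp1r14a, an inhibitor of myosin phosphatase, had 309 and 77.7 CPM (-1.99, -3.22 to -0.93). Fabp5, a fatty acid binding protein, had 1665 and 544 CPM in core members (-1.62, -2.04 to -1.21) and was lower in mixed, endothelial and neuronal barcodes (-2.08, -1.53 and -0.67). Tlr12, a Toll-like receptor, had 155 and 8.63 CPM in core members, in 14 of 23 and 1 of 20 cells.

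The contractile list was lower in cKO for 3 of 10 measured genes in members, beside 8.00% of all genes. They were Acta2 and Tagln, whose UMIs lay almost all in the single contractile cell, and Tpm1, a tropomyosin. Its sum was -0.41 (-0.53 to -0.29), -0.26 without the 4 members that held Rgs5 alone and -0.16 without the single contractile cell. In core members 0 of 6 genes were past the limit, beside 11.0% of all genes higher and 8.90% lower. The sum there was -0.08 (-0.26 to 0.11). Myl9 had 1193 and 1113 CPM (-0.10, -0.45 to 0.24) and Cald1, caldesmon, 2121 and 2002 CPM (-0.08, -0.34 to 0.17) in core members.

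Among the genes higher in cKO members was Sgk1, a kinase induced by glucocorticoids. Sgk1 had 49.95 CPM in WT members (13 of 49 cells) and 381 CPM in cKO members (25 of 31), a log2 ratio of 2.93 (2.31 to 3.60). In core members Sgk1 had 1 UMI in 1 of 23 WT cells (7.37 CPM) and 50 UMIs in 17 of 20 cKO cells (431 CPM). Thinned to 1500 UMIs, Sgk1 was in 0 of 23 and 12 of 20. Endothelial barcodes showed the same direction, 153 and 568 CPM (1.90), as did mixed barcodes (2.55), while projection neurons had 39.4 and 41.3 CPM (0.07). Thus the excess of Sgk1 was seen in the vessel barcodes and not in projection neurons. All other kept barcodes together, which include the endothelial and mixed ones, had 34.1 and 47.3 CPM (0.47, 0.39 to 0.56).

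Klf6, a zinc finger transcription factor of the early response, had 88.4 and 647 CPM in core members (2.87, 1.98 to 3.89). Its ratio was 1.62 in mixed, 1.23 in endothelial and -0.17 in neuronal barcodes. Timp3, an inhibitor of matrix metalloproteinases, had 66.3 and 388 CPM in core members (2.55, 1.5 to 3.77), with 3.64, 3.43 and 0.18 in the same classes. Klf9, a glucocorticoid target, had 36.8 and 181 CPM in core members, with ratios of 2.43 in mixed, 2.92 in endothelial and -0.14 in neuronal barcodes. These genes shared the pattern of Sgk1. Per1, a clock gene, was higher in neurons as well (1.37) and Spry1, a brake on receptor tyrosine kinase signalling, too (1.09, beside 2.44 in core members). The thrombin receptor F2r had 221 and 915 CPM in core members (2.05, 1.45 to 2.69), with ratios of 0.61 (0.20 to 1.01) in mixed and 0.14 in endothelial barcodes. Ctgf and Cyr61, matricellular proteins, had 0 and 155 CPM and 7.37 and 199 CPM in core members.

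**Figure D5:**
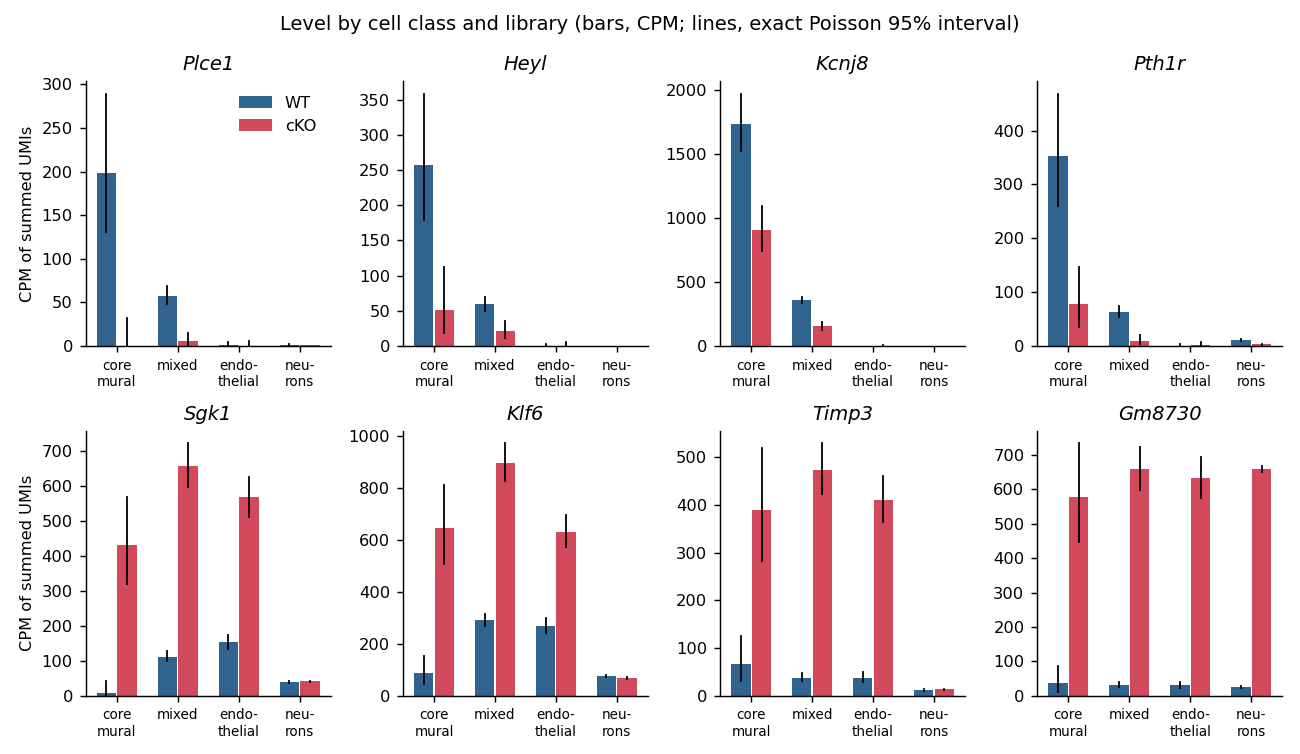
CPM of summed UMIs (vertical axes, linear from 0) in core members, mixed barcodes, endothelial barcodes and projection neurons of the WT (blue) and cKO (red) library, with exact Poisson 95% intervals of counting error. Plce1, Heyl and Kcnj8 are lower in cKO core members and mixed barcodes and near 0 elsewhere, Sgk1, Klf6 and Timp3 are higher in cKO vessel barcodes, and Gm8730 is higher in every class.

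By list, 5 of 9 measured genes of glucocorticoid response and clock were higher in cKO members and 0 lower, beside 4.80% of all genes higher. Their sum was 824 CPM in WT and 2002 CPM in cKO members (1.28, 1.10 to 1.46) and 803 and 2433 CPM in core members. In all other kept barcodes the list was higher in cKO too, at 667.5 and 949.9 CPM. In core members 3 of 5 were higher, among them Sgk1, Klf9 and the metal-binding Mt1 (111 and 388 CPM), beside 11.0% of all genes. Of 14 immediate early and stress genes 1 was higher in members, beside 4.80% of all genes, and 3 were without the 4 members that held Rgs5 alone. The 1 was Dusp1, a phosphatase that switches off MAP kinases, at 69.2 and 223 CPM. In core members 4 of 12 were higher (Fos, Jun, Dusp1 and Ier3), beside 11.0% of all genes, and 2 lower (the heat shock genes Hspa8 and Hsp90aa1), beside 8.90%. Egr1, of the same group, had 236 and 207 CPM in core members (-0.19, -1.01 to 0.62).

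The basement membrane, which pericytes share with endothelium, was higher in core members of the cKO library by its sum (0.43, 0.35 to 0.51) and level in all members (0.03, -0.02 to 0.08), or 0.18 (0.13 to 0.23) without the 4 members that held Rgs5 alone. The fibroblast list was higher in the same core cells, at 869 and 1363 CPM (0.65, 0.30 to 1.01), and had 864 and 866 CPM in all members. Its part in the matrix genes was not tested. Col4a1 had 2364 and 4099 CPM in core members (0.79, 0.59 to 1.00) and Col4a2 1237 and 1795 CPM (0.54, 0.24 to 0.84). The linker Nid2 had 58.9 and 276 CPM in core members (2.23, 1.08 to 3.56). In mixed barcodes the ratios were 0.08 for Col4a1 and 0.30 (-0.02 to 0.62) for Nid2. Of 17 core genes 3 were higher past the limit (Lamc3, Timp3 and Nid2), beside 11.0% of all genes. Of 20 genes in all members 2 were higher, beside 4.80%, and 1 lower, beside 8.00%.

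Of 16 endothelial genes 9 were lower in cKO members, beside 8.00% of all genes, with a sum of 6976 and 2871 CPM (-1.28), and in core members the sum was 751 and 699 CPM. The rule limited 3 of these genes in every member (Cldn5, Flt1 and Pecam1) and core members were chosen with none of their UMIs. The values of those 3 genes therefore describe the choice, and the cause of the difference in the other genes was not tested. Mfsd2a, the lipid transporter of the blood-brain barrier, had 596 and 22.97 CPM in members, in 20 of 49 and 2 of 31 cells, and 0 UMIs in core members of both libraries. In endothelial barcodes the ratio of Mfsd2a was -1.03 (-1.20 to -0.86). Among PDGF and angiopoietin genes 4 of 9 were lower, beside 8.00%. They were Kdr, Nrp1, Pdgfb and Flt1, a gene of the rule. Kdr was in 0 of 23 WT and 3 of 20 cKO core members, and Pdgfb in 1 and 0. The co-receptor Nrp1 was also lower in core members (214 and 94.9 CPM), 1 of 2 genes measured there, beside 8.90% of all genes. Of 15 TGF-beta and BMP genes 2 were higher and 2 lower, beside 4.80% and 8.00% of all genes, and in core members 1 of 6 was higher, beside 11.0%. Of the 9 STING and interferon genes measured 0 were higher and 1 lower, beside 4.80% and 8.00% of all genes. This was the antiviral tetherin Bst2, with 69.2 and 29.5 CPM in members but 29.5 and 34.5 CPM in core members. In core members 0 of 4 were past 2-fold, beside 11.0% of all genes higher and 8.90% lower. Their sum was 2319 and 2189 CPM in members (-0.08, -0.22 to 0.05) but 1996 and 2589 CPM in core members, higher in cKO (0.38, 0.13 to 0.62). The interferon-induced Ifitm3 had 707 and 699 CPM in members. In core members Ifitm3 alone gave 928 of the 1996 CPM in WT and 1199 of the 2589 CPM in cKO. The core sum therefore does not describe the pathway as a whole.

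Cell cycle genes were higher in cKO members for 9 of 17, beside 4.80% of all genes, and lower for 1, beside 8.00%, with a sum ratio of 1.27. In core members 1 of 8 was higher, beside 11.0%, and 3 were lower, beside 8.90%, and the sum was -0.57. These UMIs lay in few cells, with Cenpa in 5 of 31 and Ube2c in 6 of 31 cKO members, and 1 cell gave 63.9% of the Cenpa and 88.7% of the Ube2c UMIs. At least 3 UMIs of Mki67 and Top2a were found in 2 of 49 WT and 4 of 31 cKO members. The neuron list, at 1028 and 1283 CPM in all members, had 646 and 323 CPM without the 4 members that held Rgs5 alone, and 1510 and 449 CPM and the radial glia and astrocyte list 582 and 173 CPM in core members. These lists were lower in the cKO core members, and their part in the other differences was not tested.

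Some of the largest ratios were shared by every class of cell. Gm8730, a processed pseudogene, had 40.3 and 607 CPM in members (3.91, 3.26 to 4.64) and 24.9 and 661 CPM in projection neurons (4.73). Reads of such a copy can be split with its parent gene, so its level is uncertain. Among the core genes past 2-fold with an interval excluding 0 and at most 25% of their UMIs from 1 cell, a rule set after seeing the values, 210 were higher and 93 lower. Of the 93 lower genes, 47 were past 2-fold the same way in mixed barcodes and 26 in neurons. Of the 210 higher genes, 39 were past 2-fold the same way in mixed barcodes and 18 in neurons. Counted by an interval excluding 0 instead, 75 of the 93 were also lower in mixed barcodes and 66 in neurons. Of the 210, 129 were also higher in mixed barcodes and 127 in neurons. The share of all genes past 2-fold, or with such an interval, in those classes was not computed. Whether these counts exceed it cannot be said. Among genes whose positions were looked up, Notch3, Abcc9, Ndufa4l2, Art3, Zic1, Lamc3, Tagln, Pln, Cald1, Plce1, Pth1r and Timp3 overlap another gene transcribed the other way, and the sources used here do not say whether reads were counted by strand.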

How the data were processed

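Single cells of P0 cortex were profiled in 1 WT and 1 cKO library. The authors deposited raw, unnormalized UMI counts of each gene in each barcode, and per the file headers Cell Ranger 3.0.1 wrote them. The submitters' processing notes name Cell Ranger 2, STAR, Seurat and build mm9. Strand use and cell calling are not given in the sources used here. A combined matrix and a marker table of the authors were not used.

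The mural rule, gene lists and named genes were chosen with earlier results of these data known. Within each library the UMIs of a class were added up and scaled to CPM (Python 3.11.15, numpy 2.4.6, pandas 2.3.3). Levels carry exact Poisson 95% intervals, ratios exact conditional binomial intervals and shares Clopper-Pearson intervals (scipy 1.17.1). These cover counting error only. Named by rule were list genes, the 15 genes leading members over others, and the 12 highest and 12 lowest ratios with intervals that do not overlap. Genes described for core members were chosen after their values were seen. Endothelial, mixed and projection neuron barcodes were set by marker UMIs. Doublets were left in and called as an alternative with Scrublet (scanpy 1.11.5) at an expected rate of 0.06. Of 27998 gene IDs, 27645 matched GENCODE M21. The ratio script was tested on simulated data. Alternatives covered cell filters, the rule, scaling (TMM, edgeR 4.0.16), count minimum and fold.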

Additional observations from a re-analysis of the deposited data

How the results depend on the processing

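No paired analysis was possible because each group has 1 library and no replicate, so no replicate could be left out and no difference has a p-value. The alternatives with core members and without contractile, erythroid or Rgs5-only cells were chosen after seeing the data, and the combined matrix was not run. Members numbered 63 and 36 in WT and cKO without cell filters, 47 and 27 by the stricter rule, and 47 and 31 without Scrublet calls. The share difference stayed between -0.285 and 0.0400 points. With at least 1000 genes and at most 5% mitochondrial UMIs only 6 and 1 members remained, so those values rest on 1 cKO cell. The pericyte sum (-0.19) was -0.34 without cell filters, 0.62 (reversed) with 1000 genes and 5%, -0.037 by the stricter rule, -0.56 without endothelial UMIs and -0.045 without Rgs5-only members. The contractile sum (-0.41) was -0.55, 1.57 (reversed) and -0.25 in the first 3 of these, -0.26 without Rgs5-only members, -0.16 without the contractile cell and -0.075 in core members. Genes higher (298) numbered 148 with 1000 genes and 5%, 134 at 50 UMIs and 45 at 3-fold. Genes lower (497) numbered 217, 182 and 146 in these, 206 without endothelial UMIs, 776 at 10 UMIs and 220 in core members. The number of genes measured changed with the cells and the UMI minimum, so these counts are not shares. In core members the 220 were 8.90% of 2473 genes, beside 8.00% of 6209 for the 497. Of 24 leading genes, 15 were past 2-fold in core members, 9 of them with at least 20 UMIs there. With 1000 genes and 5%, ratios reversed for Sgk1 (-2.71), Ppp2r2c (-2.94), Cyr61 (-2.44), Rdh10 (-1.08), Pnpla2 (-2.94), Dyrk2 (-2.11) and Hspa2 (1.74). Ube2c reversed without endothelial UMIs (-0.76) and in core members (-0.47), Igsf21 by the stricter rule and without Rgs5-only members (both -0.50) and in core members (-0.80), and Acta2 in the same as Ube2c (0.66 and 0.90). Of 708 values for 59 genes, 571 lay within the interval of the main ratio, 123 lay outside it and 14 reversed. The values have 10 CPM added and the intervals do not. A reversal was counted only for genes past 2-fold with an interval excluding 0, so other changes of sign were not counted. Beyond the changes in the cells used, the cause was not tested.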
